A study of Arabidopsis thaliana with 12 samples.

Results

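Shoots of Arabidopsis thaliana seedlings were compared after a treatment of the roots alone, made to induce the peptide gene CLE3. The shoots were thus at a distance from the treated organ, and whether induction stayed in the roots was not tested. The comparison used 5 of the 12 arrays of the series: 2 of shoots whose roots received estradiol and 3 of shoots whose roots received DMSO. Members were chosen by the sample titles and by whether an array had the tissue profile that its title names. All plants of the series, controls included, carried the same estradiol-inducible CLE3 transgene and were grown under continuous white light. The transgene is turned on by estradiol, and DMSO, the solvent, served as the control. Only roots were exposed, in plants 7 days old and for 24 h at a dose that the labels give as 5 mM, before both organs were harvested apart. The labels do not name the promoter behind the inducible system, the number of transgenic lines or the number of plants behind an array. Plants without the transgene that received estradiol were not analysed here, so a response to CLE3 and a response to estradiol itself cannot be told apart. A second label field, the source name, gives DMSO for every shoot array and conflicts with the titles, which were followed. Nothing in the labels tells whether the replicates were grown independently, and the p-values below then describe only the spread among these arrays.

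CLE genes encode small peptides that are cut from larger precursors and secreted. Many bind leucine-rich repeat receptor kinases such as CLAVATA1 and limit stem cell number in the meristems or steer the development of vascular tissue. Some members act over long distances: CLE25, made in roots under drought, travels to leaves and promotes abscisic acid synthesis there. CLE3 belongs to the members expressed mainly in roots. No listed feature named CLE3, so its level was not analysed here in either organ.

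The tissue of each array was checked first, from textbook markers. The 5 shoot arrays correlated with each other across features at 0.977 to 0.981 and with the 5 matching root arrays at 0.869 to 0.882. The array titled shoot estradiol replicate 3 correlated at a mean of 0.986 with those root arrays and 0.874 with the shoot arrays. The array titled root DMSO replicate 3 showed the opposite, 0.874 with root and 0.981 with shoot arrays. SBPASE, an enzyme of the Calvin cycle, read 11.10 to 11.18 on the 5 shoot arrays, 6.92 to 7.88 on the 5 root arrays, 8.05 on the array titled shoot estradiol replicate 3 and 11.26 on the one titled root DMSO replicate 3. BGLU21, a beta-glucosidase of root tissue, read 2.89 to 4.47 on the shoot arrays, 10.21 to 10.44 on the root arrays, and 10.53 and 2.79 on these 2. Both arrays went against their titles and were left out, and results with them are given as such.

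**Figure D1:**
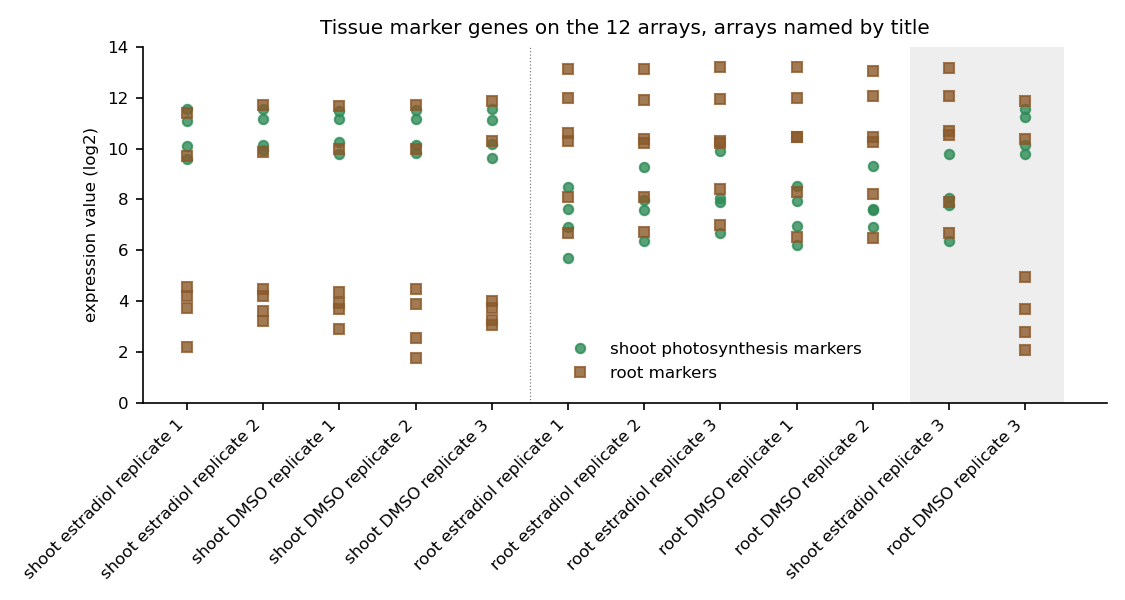
Log2 expression values (vertical axis) of 4 shoot photosynthesis markers and 6 root markers on each of the 12 arrays, named by title along the horizontal axis. The 2 arrays on a grey ground were left out: BGLU21 reads 10.53 on the array titled shoot estradiol replicate 3 and 2.79 on that titled root DMSO replicate 3, where the other shoot arrays lie between 2.89 and 4.47.

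Summed levels of the tissue markers overlapped between estradiol and DMSO on the 5 arrays compared. Of 11 photosynthesis markers 4 were measured (LHCB4.1, RCA, SBPASE and PRK), and their summed log2 level was 42.36 to 42.83 with estradiol and 42.47 to 42.72 with DMSO. Of 14 root markers 6 were measured, with sums of 35.75 to 37.07 and 34.33 to 36.50, against 60.48 to 61.06 on the root arrays. Single markers separated the groups: NAI2, which shapes the ER bodies of root cells, read 9.70 and 9.88 with estradiol and 9.97, 9.98 and 10.30 with DMSO, a difference of -0.30 (SE 0.17, limma adjusted p 0.874). RCA, which activates Rubisco, read 11.56 and 11.57 against controls of at most 11.54, a difference of 0.04 (SE 0.12, limma adjusted p 0.990). FAMA, which drives guard cell formation, read 7.56 and 7.85 with estradiol and 7.71 to 7.99 with DMSO. SWEET11, a phloem sucrose exporter, read 10.75 and 10.92 against 10.68 to 10.80. CLV3, the stem cell signal of the shoot meristem, read 1.71 to 2.15 on the 5 arrays, below the 25th percentile of each array (3.06 to 3.12). None of the 5 trichome markers was measured. In whole shoots, fewer cells of a type and less RNA per cell cannot be told apart.

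No gene or other feature of the shoot passed the test. Of 38408 features limma called 0 (0%) after Benjamini-Hochberg adjustment at 0.05, with a smallest adjusted p of 0.587, and 2414 (6.29%) had an unadjusted p under 0.05. The deposited values were read as log2 expression, a scale the labels do not state. On that reading a difference of 1 stands for a 2-fold change, and every difference in expression is estradiol minus DMSO. The median 95% interval of a difference reached 0.49 on either side, and 0.41 where a group mean was at least 5. Differences smaller than that mostly had an interval that held 0. These intervals are of single features without adjustment over all features, so larger changes could also go uncalled with 2 against 3 arrays. AT3G32280, described below, differed by 1.56 and was not called (limma adjusted p 0.685).

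Because no call was made, the genes are described by their values and by whether the groups overlap. Both estradiol values lay above all DMSO values for 3860 features and below them for 4449, together 21.6%, so that 46.5% of the separated features were higher with estradiol. When each array was centred on its median the split was 4590 against 3477, or 56.9% higher. The sign of the balance thus depended on the scaling, while the median difference over all features was -0.01 as deposited and 0.02 when centred. At least 1 log2 unit apart and separated were 542 features (1.41%), 234 higher and 308 lower. Of these, 106 had a group mean of at least 5, and 5 such features stood for a named gene.

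Features with exactly 1 annotated gene gave 16542 genes, and 7862 of them had a mean of at least 5 in 1 of the groups. Among the 7862, 586 (7.45%) were separated and higher and 1082 (13.8%) separated and lower; with arrays centred on their medians these shares were 9.69% and 9.92%. The middle 95% of their differences ran from -0.38 to 0.36, with extremes of -0.81 and 1.56. The genes described next were taken from both ends of this range by their p-value, so their separation is part of how they were chosen.

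**Figure D2:**
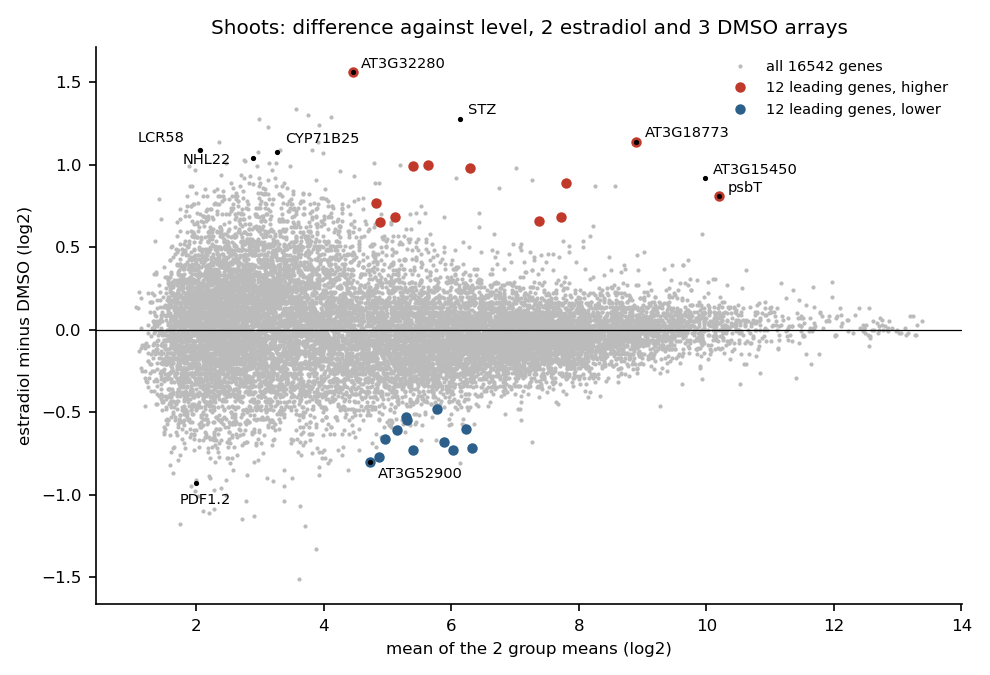
Estradiol minus DMSO in shoots (log2, vertical axis) against the mean of both group means (log2, horizontal axis) for each of 16542 genes (grey), with the 12 leading genes in each direction in colour. STZ at 1.28, AT3G18773 at 1.14 and psbT at 0.81 stand above the middle 95% of genes at a group mean of 5 or more (-0.38 to 0.36), and the spread is wide among dim genes such as LCR58.

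The leading genes on the higher side were mostly known by locus code only. AT3G18773 read 9.65 and 9.28 with estradiol and 8.59, 8.25 and 8.14 with DMSO. Its difference was 1.14 (SE 0.21, 2.21-fold, limma adjusted p 0.685). The lowest estradiol array thus stood well above the highest control. AT3G07350 had the smallest p of the 12, with 5.90 on both estradiol arrays and 5.02, 4.85 and 4.88 on the controls, a difference of 0.99 (SE 0.13, limma adjusted p 0.587). AT2G20670 read 6.84 and 6.72 against 5.98, 5.85 and 5.57, a difference of 0.98 (SE 0.17). In each of these genes the gap between the groups exceeded the range within either.

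psbT, a chloroplast gene for a small subunit of photosystem II, was the only one of these 12 with a symbol. It read 10.55 and 10.66 with estradiol and 9.75, 9.83 and 9.81 with DMSO, a difference of 0.81 (SE 0.13, limma adjusted p 0.685). The 3 genes beside it in the chloroplast genome of the RefSeq table did not share the difference, a comparison added after seeing the values. psbB, a core antenna protein of photosystem II, read 13.25 and 13.26 against 13.30, 13.23 and 13.32. psbH, another small subunit, read 12.89 and 12.82 against 12.90, 12.73 and 12.91. psbN, an assembly factor of the same complex, read 9.66 and 10.36 against 10.09, 10.08 and 10.25, so its estradiol values lay on both sides of the controls.

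Among the other 8 higher genes the differences ran from 0.65 for AT5G14995 to 1.56 for AT3G32280. AT3G32280 had the largest difference of the 12 but also the widest controls, 3.65, 3.21 and 4.16 against 5.35 and 5.12 (SE 0.30). AT5G03090 differed by 1.00 (SE 0.21), AT4G32480 by 0.89 (SE 0.18) and AT3G18720 by 0.77 (SE 0.16). AT1G23390 and AT5G41290 both differed by 0.68, with SE 0.14 and 0.13, and AT2G15880 by 0.66 (SE 0.13). AT2G15880 read 7.70 and 7.72 against 6.96, 7.11 and 7.06, and AT5G41290 5.50 and 5.40 against 4.74, 4.82 and 4.75. The limma adjusted p of all 8 was 0.685.

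The leading genes on the lower side had smaller differences, from -0.80 to -0.48. AT1G67210 led by p, with 4.60 and 4.37 under estradiol and 5.17, 5.25 and 5.34 under DMSO, a difference of -0.77 (SE 0.15, limma adjusted p 0.685). AT3G52900 differed by -0.80 (SE 0.21), with 4.48 and 4.16 against 4.92, 5.01 and 5.43. AT1G79100 read 5.43 and 5.89 against 6.44, 6.35 and 6.37, a difference of -0.73 (SE 0.18). In this gene the controls were close together and the estradiol arrays were not. AT1G67890, listed in the RefSeq table also as RAF11, of the Raf-like protein kinases, read 6.02 and 5.83 against 6.71, 6.47 and 6.40, a difference of -0.60 (SE 0.16, limma adjusted p 0.693). The other 8 were AT5G28380 at -0.72, AT1G29195 at -0.73, AT1G52420 at -0.68, AT2G04235 at -0.66, AT5G45350 at -0.61, AT3G58690 at -0.55, AT5G46560 at -0.53 and AT1G02350 at -0.48, with SE of 0.13 to 0.18.

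**Figure D3:**
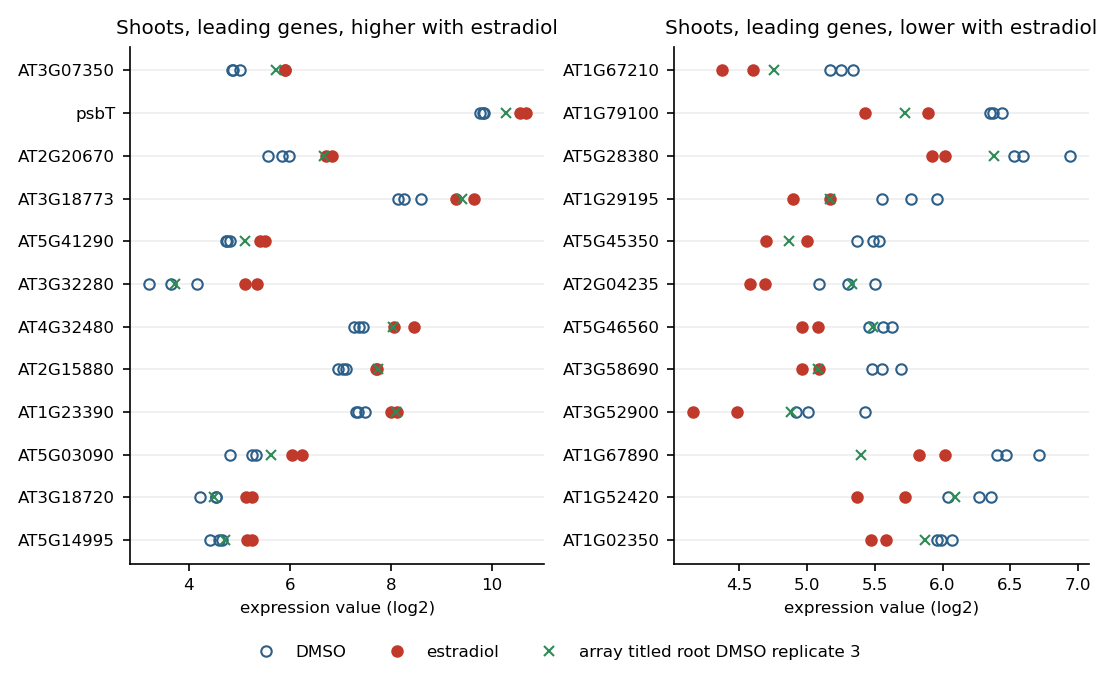
Log2 values (horizontal axis) of the 12 leading genes in each direction on each shoot array: filled red points are estradiol, open blue points DMSO, and green crosses the array titled root DMSO replicate 3, which was not used to choose them. By choice the red and blue points do not overlap; the cross of AT3G18773 (9.40) lies among the estradiol values and that of AT3G32280 (3.72) among the controls.

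Because few of those genes carry a symbol, the separated genes with one were also ranked by p, a selection added after the values were seen. On the higher side EXPA25, an expansin that loosens cell walls, read 5.62 and 5.66 against 4.98, 5.11 and 5.18, a difference of 0.55 (SE 0.14, limma adjusted p 0.685). AGL49, a MADS-box transcription factor, read 5.36 and 5.40 against 4.68, 4.95 and 4.60, a difference of 0.64 (SE 0.16). SRC2, a membrane protein with a calcium-binding C2 domain, differed by 0.33 (SE 0.13). PHOS32, a phosphoprotein, differed by 0.36 (SE 0.15) and the mitochondrial cox2, a subunit of cytochrome c oxidase, by 0.27 (SE 0.13). The values of cox2 were 10.46 on both estradiol arrays and 10.18, 10.16 and 10.23 on the controls, a small but tight separation.

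On the lower side the genes with a symbol had differing roles. UBP18, which removes ubiquitin from proteins, read 6.89 and 6.75 against 7.43, 7.20 and 7.49, a difference of -0.55 (SE 0.16, limma adjusted p 0.693). RPN12b, a subunit of the proteasome lid, differed by -0.56 (SE 0.17) and GSO1, a receptor kinase needed for the root diffusion barrier and the embryonic cuticle, by -0.55 (SE 0.16). NET1B and NET4B, which bind actin, differed by -0.50 (SE 0.16) and -0.35 (SE 0.14). RECQ4B, a DNA helicase, read 6.58 and 6.67 against 6.96, 6.99 and 7.10, a difference of -0.39 (SE 0.13). GPDHC1, a cytosolic glycerol-3-phosphate dehydrogenase, AAE15, which activates fatty acids in plastids, and CFM3A, a splicing factor of chloroplast introns, differed by -0.34, -0.32 and -0.34. TBL18, of a family that acetylates wall polysaccharides, differed by -0.37 (SE 0.16). In every one of these genes both estradiol values lay below all controls, as the selection required.

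Functions were read from 37 gene lists, of which 27 had at least 5 measured members. They are set against all 16542 genes, of which 47.3% had a positive difference, 10.1% were separated and higher, 11.8% were separated and lower, and the median difference was -0.01. No member of any list passed the test. The lists were chosen with earlier results of these data known, and STZ, WRKY22, AT3G15450 and PDF1.2 had been named in those results.

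**Figure D4:**
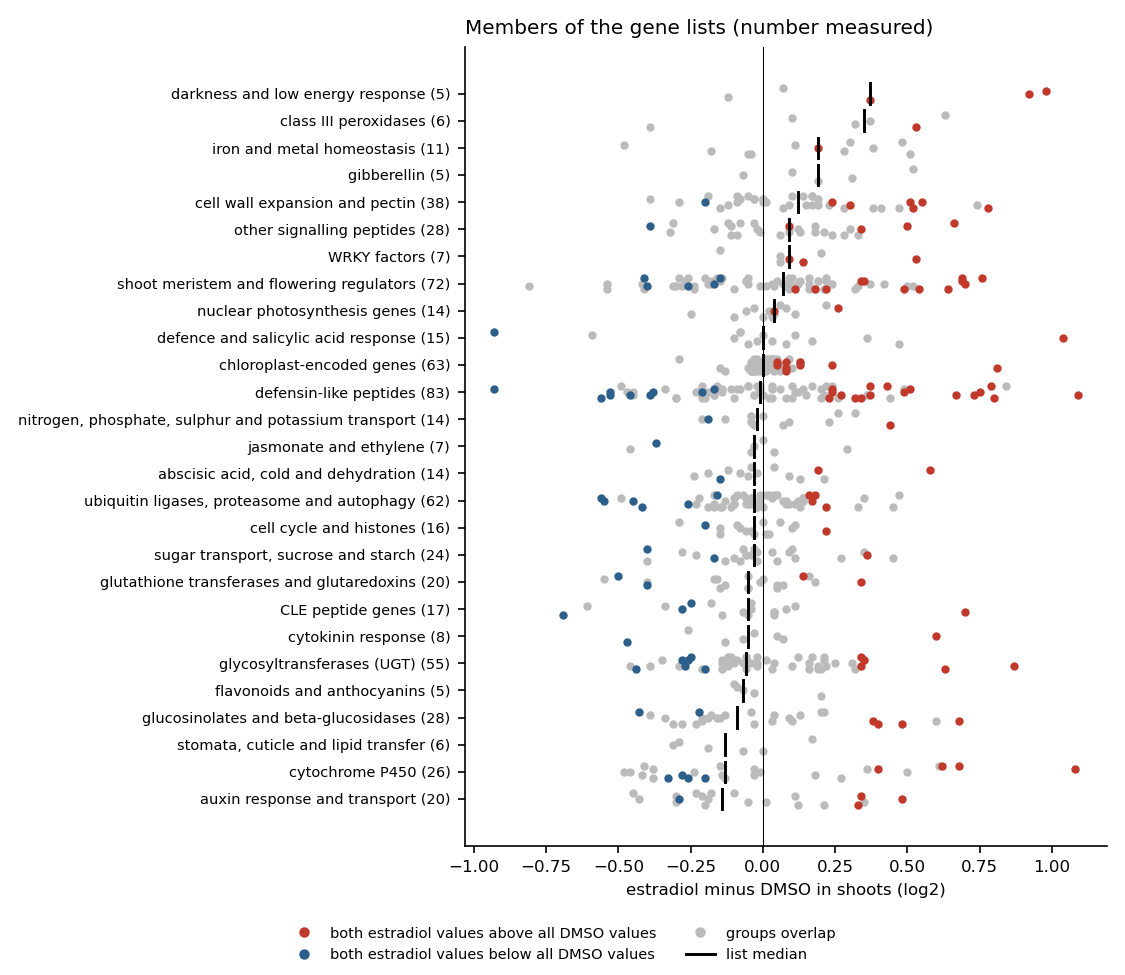
Estradiol minus DMSO in shoots (log2, horizontal axis) for each measured member of the 27 lists, with the number measured in brackets and the list median as a black bar. Red and blue mark genes whose groups do not overlap. The lists were chosen with earlier results of these data known. The list of darkness and low energy genes lies at the top with a median of 0.37, and most list medians lie within 0.2 of 0.

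The genes of darkness and low energy, which plants use more when sugar or light is short, had the highest median, 0.37 over 5 members. Of these, 4 were positive and 3 were separated and higher. The member AT3G15450 had been named in earlier results of these data, so the rank of this list is not independent of them. The median is the value of AKINBETA1, and it ranged from 0.18 without shoot DMSO replicate 3 and 0.21 without shoot estradiol replicate 1 to 0.52 without shoot estradiol replicate 2. AT3G15450 read 10.66 and 10.22 with estradiol and 9.86, 9.62 and 9.08 with DMSO, a difference of 0.92 (SE 0.28, 1.89-fold, limma adjusted p 0.693). AT3G15630 read 7.93 and 7.10 against 6.85, 6.56 and 6.18, a difference of 0.98 (SE 0.32, limma adjusted p 0.713), or 0.56 without shoot estradiol replicate 1. In both genes the 2 estradiol arrays lay further from each other than the lower of them lay from the highest control. AKINBETA1, a regulatory subunit of the energy-sensing kinase SnRK1, read 9.68 and 9.36 against 9.35, 9.34 and 8.78, a difference of 0.37 (SE 0.24). There the lower estradiol array was nearly level with 2 of the controls. In roots the median of the 5 genes was -0.10, and 1 of 5 was positive. Of the 24 measured genes of sugar transport, sucrose and starch, 9 were positive with a median of -0.03, and the sugar transporters SWEET6 and SWEET8 differed by 0.36 (SE 0.17) and -0.40 (SE 0.20).

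Stress and defence regulators held STZ and WRKY22 among the separated genes. Of the 4 measured ERF, DREB and stress zinc finger factors, the list of STZ, 2 were positive and 2 negative, with a median of -0.05. STZ was the only one of them that was separated. STZ, a zinc finger repressor also known as ZAT10 that responds to cold, salt and strong light, read 7.18 and 6.37 with estradiol and 5.94, 5.41 and 5.12 with DMSO. Its difference was 1.28 (SE 0.35, 2.43-fold, limma adjusted p 0.693). Without shoot estradiol replicate 1 it was 0.88, so that array held much of the size. Of 7 WRKY factors, which regulate immunity and senescence, 6 were positive and 3 separated, with a median of 0.09. WRKY22, which acts in immune signalling, read 5.75 and 5.65 against 5.34, 5.16 and 5.01, a difference of 0.53 (SE 0.16, limma adjusted p 0.693). WRKY20 differed by 0.14 (SE 0.13), and WRKY41 by 0.20 (SE 0.27) with overlapping groups.

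The 15 measured genes of defence and salicylic acid response had a median of 0.00, with 8 positive and 7 negative. NHL22, related to the immune regulator NDR1, read 3.43 and 3.39 with estradiol and 2.43, 2.28 and 2.41 with DMSO, a difference of 1.04 (SE 0.13, limma adjusted p 0.587). PDF1.2, a defensin induced by jasmonate and ethylene, read 1.65 and 1.41 against 2.89, 1.66 and 2.83, a difference of -0.93 (SE 0.41, limma adjusted p 0.820). 1 of the controls thus lay at the level of the estradiol arrays. Both genes read low on these arrays, near or under the 25th percentile, where differences scatter widely.

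Genes of abscisic acid, cold and dehydration were balanced, with 6 of 14 positive and a median of -0.03. COR15A, which protects chloroplast membranes in the cold, read 10.20 and 10.24 with estradiol and 9.10, 9.77 and 10.05 with DMSO, a difference of 0.58 (SE 0.30, limma adjusted p 0.850). The controls spread over a wider range than the gap to the estradiol arrays. RD2, named for its response to drying, differed by 0.19 (SE 0.14). Of the 14 members of the list, 2 were separated and higher and 1 separated and lower. An action of CLE3 on abscisic acid in leaves, as known for CLE25, was not tested.

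Photosynthesis genes had medians close to 0 in shoots, with psbT apart from the rest. Of 63 measured chloroplast-encoded genes 35 were positive, 9 separated and higher and 0 separated and lower, with a median of 0.00. Besides psbT, rpl32, a protein of the chloroplast ribosome, read 11.41 and 11.56 against 11.29, 11.13 and 11.32, a difference of 0.24 (SE 0.14). rpl36, of the same ribosome, differed by -0.29 (SE 0.19) with overlapping groups. In roots all 63 were positive, with a median of 0.15. Of the 7862 genes with a group mean of at least 5, 42.7% were positive there. The 14 nuclear photosynthesis genes had a median of 0.04 in shoots and 0.20 in roots. PSAE-1, a subunit of photosystem I, read 11.77 and 11.86 against 11.44, 11.66 and 11.57 in shoots, a difference of 0.26 (SE 0.14). The root comparison held replicate 3 with estradiol only, and some of these genes read highest there. In roots rpl36 read 9.37, 9.55 and 10.03 with estradiol and 9.46 and 9.72 with DMSO. RCA read 8.49, 9.28 and 9.92 against 8.54 and 9.31. How much of the root medians rested on that array was not tested.

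Among signalling peptides, 17 CLE genes were measured, of which 6 were positive, 1 separated and higher and 3 separated and lower, with a median of -0.05. CLE42, which acts on axillary buds and xylem differentiation, read 8.06 and 8.16 with estradiol and 8.33, 8.48 and 8.36 with DMSO, a difference of -0.28 (SE 0.13, limma adjusted p 0.834). CLE21 differed by -0.69 (SE 0.24) and CLE22 by 0.70 (SE 0.25), both with means of 2.19 to 3.29, where values scatter widely. CLV3, itself a CLE gene, did not separate the groups, as its marker values show. Only 2 listed receptors of the family were measured, with differences of -0.25 and -0.07. Of 28 other peptide genes 16 were positive, 4 separated and higher and 1 lower, with a median of 0.09. RTFL14, of a family of small peptides that alter organ shape, read 4.82 and 4.80 against 4.22, 4.17 and 4.05, a difference of 0.66 (SE 0.13, limma adjusted p 0.685). RTFL13 of the same family differed by -0.39 (SE 0.16), and RALFL26, of the peptides that bind FERONIA-type receptors, by 0.50 (SE 0.20).

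The hormone lists held few separated genes. In the cytokinin response, ARR15, a response regulator that dampens the signal, read 5.85 and 5.43 with estradiol and 6.11 on each of the 3 controls. Its difference was -0.47 (SE 0.17, limma adjusted p 0.789). RR18, a regulator that activates cytokinin targets, differed by 0.60 (SE 0.17), and the 8 members had a median of -0.05. Of 20 auxin genes 8 were positive, 3 separated and higher and 1 lower, with a median of -0.14. YUC2, an enzyme of auxin synthesis, read 4.75 and 4.72 against 4.96, 5.05 and 5.06, a difference of -0.29 (SE 0.13). LBD16, a regulator of lateral root formation, differed by 0.34 (SE 0.16), and IAA34, an auxin response repressor, by 0.48 (SE 0.24). Of 5 gibberellin genes 4 were positive with a median of 0.19 and none separated. The receptor gene GID1B differed by 0.31 (SE 0.23), and SLY2, of the complex that removes DELLA repressors, by 0.52 (SE 0.26). Without shoot DMSO replicate 3 GID1B was at 0.12, and without shoot estradiol replicate 2 SLY2 was at 0.17. In the jasmonate and ethylene list, MYC3, a transcription factor of jasmonate signalling, read 6.15 and 6.58 against 6.73, 6.83 and 6.66, a difference of -0.37 (SE 0.18).

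Cell wall genes included EXPA25, described above. Of 38 measured, 24 were positive, 6 separated and higher and 1 lower, with a median of 0.12; the 16 members with a group mean of at least 5 had a median of 0.00. AT4G02300, listed also as the pectin methylesterase PME39, read 4.09 and 4.03 against 3.27, 3.42 and 3.17, a difference of 0.78 (SE 0.14, limma adjusted p 0.685). XTH33, which cuts and rejoins xyloglucan, differed by 0.51 (SE 0.21). Of 6 class III peroxidases, which cross-link wall polymers, 5 were positive, with a median of 0.35, or -0.00 without shoot estradiol replicate 1. PRXCA read 5.58 and 5.63 against 5.30, 5.51 and 4.43, a difference of 0.53 (SE 0.34), where 1 low control set most of the gap. PRX52 read 4.82 on 1 estradiol array and 3.40 on the other, with controls of 3.38 to 3.56, so its difference of 0.63 (SE 0.42) rested on that array.

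Families of specialized metabolism divided in both directions. Of 26 cytochrome P450 genes 9 were positive, 4 separated and higher and 4 lower, with a median of -0.13. CYP71B25 read 3.82 and 3.78 with estradiol and 2.84, 2.83 and 2.50 with DMSO, a difference of 1.08 (SE 0.16, limma adjusted p 0.685). CYP79C2 and CYP79A2, of the enzymes that turn amino acids into aldoximes, differed by 0.68 (SE 0.22) and 0.40 (SE 0.16). Of 55 glycosyltransferases 23 were positive, 5 separated and higher and 6 lower, with a median of -0.06. UGT74F1, which attaches glucose to salicylic acid, read 4.56 and 4.54 against 4.91, 5.09 and 4.96, a difference of -0.44 (SE 0.13, limma adjusted p 0.693). UGT71B6, which does so for abscisic acid, differed by 0.34 (SE 0.13), and a second feature of the gene by 0.56 (SE 0.36). UGT73B2, which acts on flavonoids, differed by 0.34 (SE 0.13) and UGT73B4 by 0.87 (SE 0.32). Of 28 beta-glucosidase and glucosinolate genes, 12 were positive with a median of -0.09. BGLU25 differed by -0.43 (SE 0.15) and BGLU27 by 0.48 (SE 0.15). Of 20 glutathione transferases and glutaredoxins, 8 were positive with a median of -0.05, and ROXY2, a glutaredoxin, and GSTU15, a transferase, differed by -0.50 (SE 0.20) and -0.40 (SE 0.20).

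Among lists of transport, growth and turnover, most medians lay near that of all genes, and the iron and stomata lists lay further off. Of 62 genes of ubiquitin ligation, the proteasome and autophagy 25 were positive, 4 separated and higher and 6 lower, with a median of -0.03, and PUB15, a ubiquitin ligase, differed by -0.45 (SE 0.21). Of 16 genes of the cell cycle and histones 7 were positive with a median of -0.03. AUR2, a mitotic kinase, differed by 0.22 (SE 0.14) and SIM, which stops division in trichomes, by -0.29 (SE 0.18). Of 14 nitrogen, phosphate, sulphur and potassium transport genes 7 were positive with a median of -0.02, and NAXT1, a nitrate exporter, differed by -0.19 (SE 0.13). Of 11 iron and metal genes 7 were positive, 1 separated and higher and 0 lower, with a median of 0.19, or -0.02 without shoot DMSO replicate 1. ZIP9, of the zinc and iron transporters, differed by 0.51 (SE 0.25), or 0.19 without shoot estradiol replicate 1. Of 6 genes of stomata and cuticle 2 were positive with a median of -0.13, and MUTE, which ends the divisions before a guard mother cell forms, differed by -0.31 (SE 0.25). Of 5 flavonoid genes 1 was positive with a median of -0.07.

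The shoot values were set beside the treated roots, measured on 5 other arrays (3 with estradiol and 2 with DMSO) that had no part in choosing the genes. Roots and shoots of a number may come from the same plants, which the labels do not settle. Of the 12 leading higher genes of shoots, 10 were positive in roots and 5 were separated and higher there, against 42.7% and 7.73% of the 7862 genes with a group mean of at least 5. Of the 12 leading lower genes, 8 were negative in roots and 2 separated and lower, against 57.3% and 12.7% of the 7862. Over the whole 586 separated and higher genes, 55.3% were positive and 16.7% separated and higher in roots. Over the 1082 separated and lower genes, 64.8% were negative and 14.2% separated and lower.

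psbT had a difference of the same size in both organs. It read 9.12, 9.01 and 9.39 in roots with estradiol and 8.60 and 8.13 with DMSO, a difference of 0.81 (SE 0.17) as in shoots, and no root value overlapped. AT5G41290 differed by 0.59 (SE 0.17) in roots, AGL49 by 0.72 (SE 0.22), EXPA25 by 0.49 (SE 0.17) and AT3G18720 by 0.50 (SE 0.16). None of these genes, nor psbT, was called in roots, each with a limma adjusted p of 0.999. STZ read 8.44, 7.80 and 7.27 in roots with estradiol and 6.94 and 7.31 with DMSO, a difference of 0.71 (SE 0.39) with overlapping groups. AT3G07350, by contrast, differed by -0.06 (SE 0.20) in roots and AT3G15450 by -0.10 (SE 0.35). The direct test of shoot effect minus root effect gave 1.05 (SE 0.28) for AT3G07350 at a limma adjusted p of 0.853, and 1.02 (SE 0.50) for AT3G15450 at 1. None of the named genes was thus shown to respond differently in the 2 organs.

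**Figure D5:**
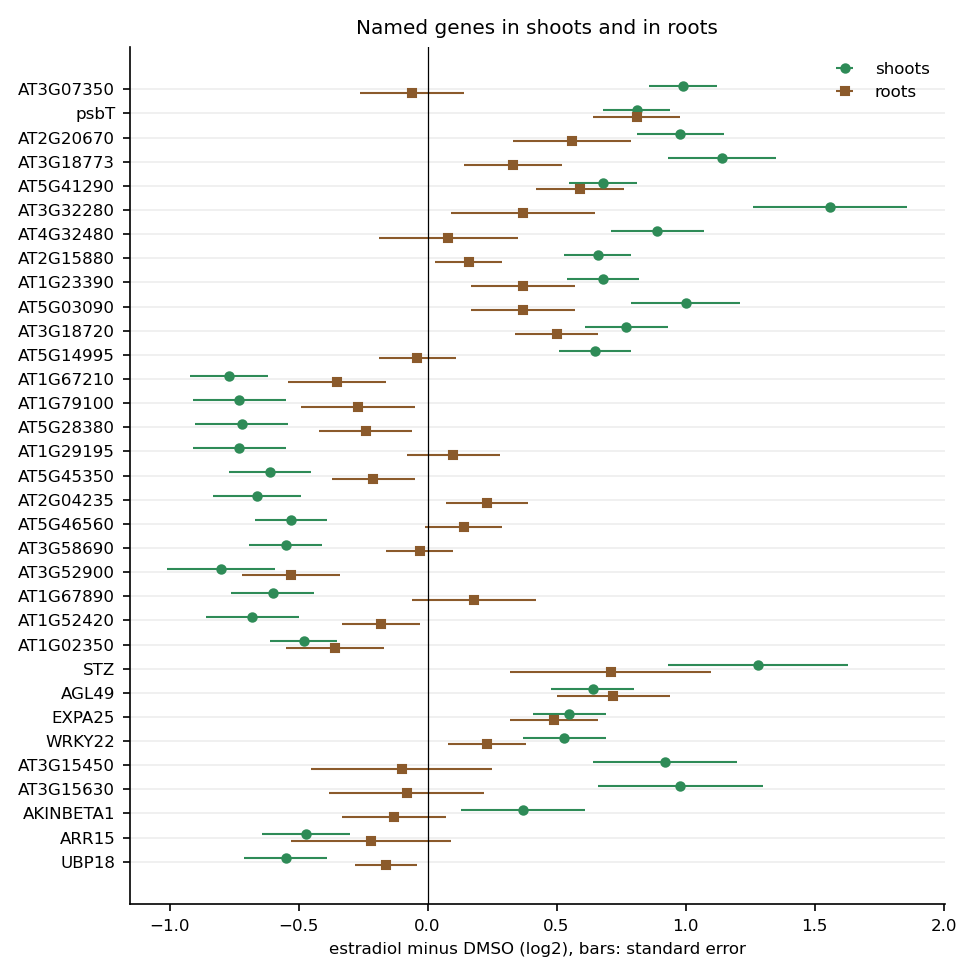
Estradiol minus DMSO (log2, horizontal axis) with its standard error for the 24 leading genes and 9 genes of the lists, in shoots (green circles, 5 arrays) and in roots (brown squares, 5 arrays). psbT lies at 0.81 in both organs, AT3G07350 at 0.99 in shoots and -0.06 in roots, and AT3G15450 at 0.92 and -0.10. The genes were chosen with the shoot values known, and none of them was called in the test of shoot effect minus root effect.

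Of 38408 features, 1 (0.00260%) passed the test of a different effect in shoots and roots. Feature 13336474, which has no gene name here, differed by 5.08 (SE 0.29) in roots. In shoots it read 5.60 and 4.73 with estradiol and 5.05, 5.16 and 5.58 with DMSO, a difference of -0.10 (SE 0.31, limma adjusted p 0.990). In shoots its groups overlapped.

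The array titled root DMSO replicate 3 has a shoot profile, and its values were set beside both shoot groups without assigning it to either. Among the 586 separated and higher genes it lay above all controls in 55.3% and nearer the estradiol mean in 49.5%. Among the 1082 separated and lower genes it lay below all controls in 53.8% and nearer the estradiol mean in 48.2%. Of the 12 leading genes per direction, 10 of the higher and 9 of the lower lay outside the controls on the estradiol side. All these genes were chosen for estradiol values beyond all controls, so an array unrelated to the treatment would also lie there in many. How many was not estimated, so these shares and counts do not tell which group the array belongs to. As examples, its value for STZ was 6.61, for AT3G18773 9.40, for AT3G15450 10.26 and for AT2G15880 7.75, each on the estradiol side of the controls. For AT3G32280 it read 3.72, for WRKY22 5.16 and for AT5G46560 5.49, each within the range of the controls. For RR18 it read 2.65, below all controls. Taken as an added estradiol array, which is an assumption and not a label, it gave 0 calls with a smallest limma adjusted p of 0.223. STZ then differed by 1.23, AT3G07350 by 0.93, psbT by 0.70 and AT3G15450 by 0.86. Other differences shrank and their groups overlapped: AT3G32280 to 1.06, RR18 to 0.26, COR15A to 0.26, CLE21 to -0.38 and CLE22 to 0.40. With 3 against 3 arrays exactly as titled, 0 features were called as well, with a smallest limma adjusted p of 0.847. There psbT differed by 0.06 and COR15A by -1.19, since 1 of the arrays so used has the profile of a root.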

How the data were processed

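Expression in roots and shoots was measured on 12 Affymetrix whole-transcript arrays of 1 colour. The authors used Affymetrix Expression Console 1.3, per the submitters' processing notes. Its settings and the genome build are not given in the labels. Their deposited values run from 0.19 to 13.84 and were read as log2 expression; the scale itself is not stated. The number of arrays limits the precision.

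Gene names came from the platform annotation and, by gene identifier, from the RefSeq table of TAIR10.1. Of 38408 features, 16722 had 1 gene, 759 several and 20927 were not listed; 16574 matched the table. Each gene was represented by its single-gene feature with the highest mean over the 5 shoot arrays, and 1798 of 16542 genes had a symbol other than a locus code.

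Estradiol and DMSO shoots were compared with limma 3.58.1 (R 4.3.3; lmFit, eBayes, 2 group means, two-sided), with Benjamini-Hochberg adjustment over all features. The effects of shoots and roots were compared in a second fit of 10 arrays with 4 group means, which also gave the root values. The fit was tested on simulated data. Array medians of the 5 shoot arrays lay between 4.99 and 5.09. The 2 arrays with the profile of the other tissue were left out; alternatives kept them, or changed the filter, the normalization, the variance model or the arrays used.

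The genes and lists were chosen with earlier results of these data known. Named genes were, per direction, the 12 separated genes of lowest p at a group mean of 5 or more, up to 3 of smallest p from each list with at least 5 measured members, the tissue markers, and STZ, WRKY22, AT3G15450 and PDF1.2. List members were found by symbol and synonym, and 17 matches that were other genes by name were removed.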

Additional observations from a re-analysis of the deposited data

Results flagged for a closer look

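The shoot and root effects differed for feature 13336474, at -5.19 (shoots minus roots, SE 0.41, limma adjusted p 0.0294). It was singled out by the test of that difference, in which it was the only one called. The feature has no gene name here and also had the smallest p in roots, and the value mainly restates the root difference of 5.08 (SE 0.29). Its shoot values lay between 4.73 and 5.60 in both groups.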

How the results depend on the processing

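The count of 0 called features in limma held in all 17 alternatives, with smallest adjusted p-values of 0.215 to 0.947 and 1367 to 3125 features at an unadjusted p under 0.05. The count of separated features moved with the number of arrays, by construction: 2048 higher and 2394 lower with the third estradiol array assumed, 1796 and 2404 as titled, and 5755 to 9955 and 6666 to 10841 when 1 array was left out. It was 1736 and 2548 with a filter on a group mean of 5, 947 and 1114 with a filter of 7, and 1678 and 1956 over features with 1 gene, where fewer features were counted. Replicate numbers are shared by title only. Deviations of same-numbered arrays correlated at 0.0754 and 0.0617, and the crossed pairs of these numbers at -0.0754 and -0.0617. With 2 estradiol arrays the deviations mirror each other, so these correlations cannot decide whether arrays were paired. Some named genes fell with replicate number in both shoot groups. STZ read 7.18 and 6.37 with estradiol and 5.94, 5.41 and 5.12 with DMSO. AT3G15450 read 10.66 and 10.22 against 9.86, 9.62 and 9.08. Shoot DMSO replicate 3, the lowest of these controls, had no estradiol array of its number in the comparison. A share of these differences that follows replicate number was not tested. With a replicate block 0 features were called and 2431 had an unadjusted p under 0.05 (2414 without the block). Replicate 3 then held only a DMSO array, which did not inform the contrast. Keeping 1 of each set of identical features, an alternative added after seeing the data, gave 3317 and 3803.

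Of 96 genes with a difference in the text, 79 kept their direction in every alternative. With the arrays as titled, which puts a root profile among the shoots, the others were AT1G23390 (-0.11), GSO1 (0.41), BGLU25 (0.19), TBL18 (0.02), RTFL14 (-0.00), WRKY20 (-0.01), WRKY41 (-0.03), COR15A (-1.19), PRXCA (-0.84), PSAE-1 (-0.78), rpl32 (-0.40), NAXT1 (0.68), AUR2 (-0.23) and SIM (0.39). With 1 array left out, PRX52 ranged from -0.07 to 1.34, THI2.2 from -0.95 to 0.04 and MUTE from -0.62 to 0.01, changing sign without shoot estradiol replicate 1. Leaving out 1 array moved 22 of the 96 differences by over 1.5 times, 15 of them without shoot estradiol replicate 1 and 15 without replicate 2. Of 380 list medians under alternatives, 55 moved by more than the spread between arrays, among them nuclear photosynthesis genes at -0.88 as titled. With 2 against 3 arrays, differences under about 0.49 mostly had an unadjusted 95% interval that held 0, and no larger difference was called either.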

Other observations

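Families read mostly at low levels scattered to both sides. Over all 16542 genes 10.1% were separated and higher and 11.8% separated and lower. At a group mean of at least 5 these shares were 7.45% and 13.8%. Genes below that level were thus more often separated and higher than those above it. Of 83 measured defensin-like peptide genes, small secreted proteins of defence and pollen recognition, 17 were separated and higher and 9 separated and lower. Their median was -0.01, and 4 of the 83 had a group mean of at least 5. LCR58 read 2.54 and 2.66 with estradiol and 1.38, 1.60 and 1.56 with DMSO, a difference of 1.09 (SE 0.15, limma adjusted p 0.587), and 1.03 on the array titled root DMSO replicate 3, below all controls. LCR25 differed by 0.79 (SE 0.19) and SCRL22 by 0.75 (SE 0.16). Of 72 regulators of the shoot meristem and of flowering, nearly all MADS-box genes, 12 were separated and higher and 5 lower, with a median of 0.07; 11 of the 72 had a group mean of at least 5. Besides AGL49, AGL54 differed by 0.69 (SE 0.15) and AGL78 by 0.54 (SE 0.14).

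The 2 estradiol arrays differed from each other in several of the larger differences. STZ read 7.18 on shoot estradiol replicate 1 and 6.37 on replicate 2, and AT3G15630 7.93 and 7.10. The thionin gene THI2.2 read 8.54 and 9.54 with estradiol and 9.04, 9.68 and 9.76 with DMSO, a difference of -0.46 (SE 0.38).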
